A study of Mus musculus with 6 samples.

Results

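Nfat5 is the tonicity-responsive member of the Rel family of transcription factors, and it was 1 of the 149 genes in the table that the authors deposited for this comparison. Its row was chosen by its symbol, but the table itself was selected on the difference described here. In the authors' deposited table no listed gene exceeded an adjusted p-value (FDR) of 0.0487, and none had a log2 fold change smaller in size than 1.001. The values of Nfat5 in the 2 groups are therefore a description, with no test of that difference.

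The NFAT5 protein accumulates in the nucleus when cells face hypertonic surroundings. It then induces transporters and enzymes that let cells take up or make compatible organic osmolytes such as taurine, betaine, sorbitol and myo-inositol, as well as heat shock proteins. In macrophages it is also known to induce inflammatory genes under Toll-like receptor stimulation. TMAO (trimethylamine N-oxide) is itself an organic osmolyte, which stabilises proteins and is formed in mammals by oxidation of trimethylamine from gut bacteria.

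Each group held 3 libraries of poly(A) RNA, made from the injured part of the heart of male C57BL/6 mice labelled as wild type. In the TMAO+IR group, mice drank 0.12% TMAO over the 4 weeks preceding ischaemia-reperfusion and throughout it. In the IR group, mice had ischaemia-reperfusion alone. In both groups ischaemia was made by a 45 min ligation of the left anterior descending artery, with 24 h of reperfusion, so no uninjured heart served as a baseline. Library sizes recovered from counts and FPKM (fragments scaled to transcript length and sequencing depth) ranged from 18370840 to 21533962 fragments in TMAO+IR and from 20681622 to 22442045 in IR. Of 11 cardiomyocyte markers only Myh7 was among the 149 genes. The other 10 were not analysed here, so the tissue label could not be checked on them. IR replicate 3 stood apart from the other IR libraries, as described below, and the fold changes and correlations of Nfat5 are also given without it.

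Nfat5 had 1308, 1561 and 1162 reads in TMAO+IR replicates 1, 2 and 3, against 845, 946 and 355 in IR replicates 1, 2 and 3. Scaled to a common library size, these were 1490, 1517 and 1168 in TMAO+IR and 855, 900 and 331 in IR. The lowest TMAO+IR library stood 1.297-fold above the highest IR library. The groups likewise did not overlap in 145 of the 149 listed genes, which are the 1.17% of tested genes that the authors selected on this difference, so nothing is read from it for Nfat5. IR replicate 3 was far below the other IR libraries. The 95% exact Poisson interval of its scaled count ran from 298 to 367, against 798 to 915 in IR replicate 1 and 844 to 960 in IR replicate 2. These intervals cover counting error only.

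**Figure D1:**
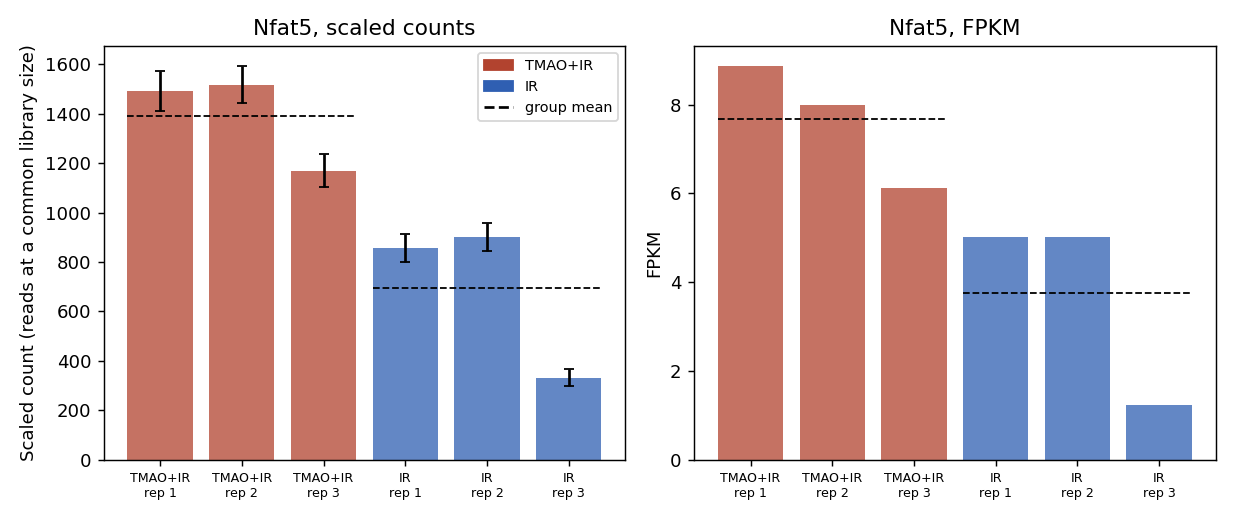
Nfat5 in each library (x axis), as scaled counts on the left with 95% Poisson intervals and as the authors' FPKM on the right (y axes), with TMAO+IR in red, IR in blue and group means dashed. The TMAO+IR libraries lie between 1168 and 1517 scaled counts, above every IR library, and IR replicate 3 is lowest in both panels at 331 scaled counts and 1.24 FPKM.

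In FPKM, Nfat5 was at 8.88, 8 and 6.13 in TMAO+IR replicates 1, 2 and 3, against 5.02, 5.01 and 1.24 in IR replicates 1, 2 and 3. The mean was 7.67 ± 1.40 FPKM in TMAO+IR and 3.76 ± 2.18 FPKM in IR (SD, n = 3 each). The IR spread lay almost wholly in replicate 3, since IR replicates 1 and 2 were nearly equal. Among the 117 listed genes with a mean of at least 50 counts, the SD of log2 scaled counts in IR was 0.81 for Nfat5, the 7th largest, against a median of 0.43. In TMAO+IR the SD was 0.21, at rank 88 of 117.

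The log2 fold change from counts was 1.001 ± 0.40 (edgeR estimate ± SE, TMAO+IR over IR). That SE follows the trend over the listed genes and hardly reflects the spread of Nfat5 itself. The authors' deposited table gives a log2 fold change of 1.03, a p-value of 0.00062 and an FDR of 0.0229 for Nfat5. By their ratio it ranked at most 345th of about 12721 tested genes. Among the 122 listed genes that were higher in TMAO+IR, Nfat5 was 115th in the authors' fold change, close to the 2-fold limit of the list. The median was 1.22 on the log2 scale over those 122 genes. Its level per length was 56th of 149 in TMAO+IR and 62nd of 149 in IR, by mean FPKM. Whether more Nfat5 RNA per cell or more cells that contain it gave these bulk values cannot be told apart.

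The size of the difference rested on IR replicate 3. Without it, the log2 fold change from counts was 0.66 ± 0.38 and the log2 ratio of mean FPKM was 0.61, which is under the limit of 1 that the list was selected on. The TMAO+IR mean was then 1.59-fold the mean of IR replicates 1 and 2 in scaled counts and 1.53-fold in FPKM. Of the 122 higher genes, 84 stayed at or above a log2 ratio of 1 without that library, and Nfat5 had the smallest ratio of all 122. Leaving out TMAO+IR replicate 1 gave 0.91 in FPKM and leaving out TMAO+IR replicate 2 gave 0.998, whereas leaving out IR replicate 1 or IR replicate 2 gave 1.295 and 1.293. The direction was the same in every one of these leave-one-out values. Since the groups did not overlap, leaving out 1 library could not turn it, so nothing is read from that.

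**Figure D2:**
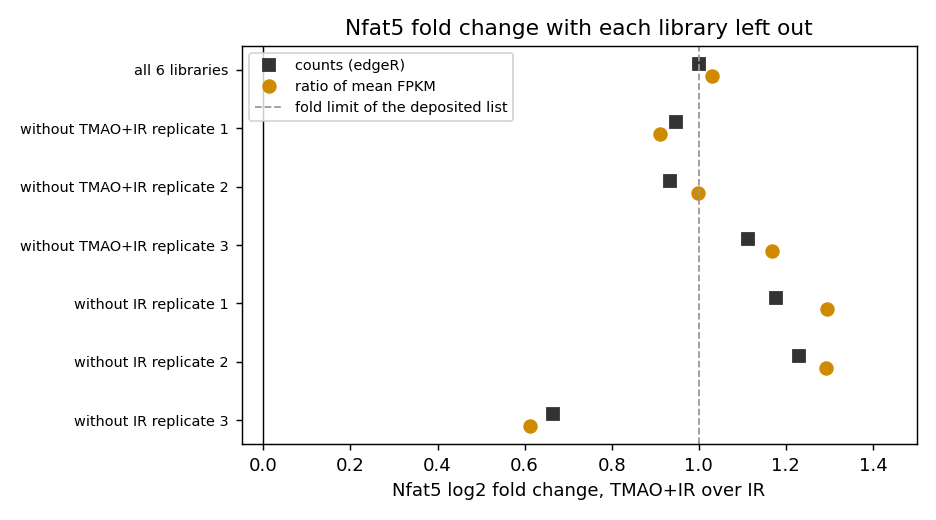
Nfat5 log2 fold change of TMAO+IR over IR (x axis) with all 6 libraries and with each library left out (y axis), from counts (squares) and from mean FPKM (circles). The values without IR replicate 3, 0.66 and 0.61, are the lowest, and the dashed line is the fold limit of 1 of the deposited list.

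Nfat5 (ENSMUSG00000003847) lies on the plus strand of chromosome 8 at 107293470 to 107379517 of GRCm38, in the GENCODE M21 annotation. There are 14 annotated transcripts, 7 of them protein-coding, and no other annotated gene overlaps the locus. The longest, annotated as a nonsense-mediated decay transcript, has 13443 bp, more than the longest transcript of any other listed gene. The median over the 149 genes was 3788 bp, and 0.624% of 21951 annotated protein-coding genes have a transcript at least as long. The annotated transcripts fall into a long class of 12.8, 13.4 and 13.4 kb and a class of at most 6.10 kb, with none between. The 13.4 and 12.8 kb protein-coding transcripts end at the far 3′ end of the locus, at position 107379516. A 4.62 kb protein-coding transcript of the short class ends close by, at 107379508.

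The ratio of count to FPKM, divided by the library size, gives the effective length that the authors' quantification attributed to the gene. It moves when reads are assigned to longer or shorter transcripts. FPKM contains it, and the fold limit of the list acted on FPKM, so it is given as a description, with no test. For Nfat5 it was 8.02, 9.06 and 9.10 kb in TMAO+IR replicates 1, 2 and 3, against 8.14, 8.59 and 12.8 kb in IR replicates 1, 2 and 3. All libraries except IR replicate 3 lay between the short and the long class of annotated transcripts, and IR replicate 3 lay at the length of the long class. The mean was 8.73 ± 0.61 kb in TMAO+IR and 9.83 ± 2.55 kb in IR (SD, n = 3 each), a difference of -1.10 kb. Without IR replicate 3 the sign turned, to 0.36 kb.

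Effective length was stable for most listed genes. Across the 86 genes that reached 1 FPKM in all libraries, the highest value was a median of 1.06-fold the lowest, against 1.59-fold for Nfat5, the 4th widest. In IR replicate 3 the effective length of Nfat5 was 1.53-fold the mean of IR replicates 1 and 2, the second largest ratio of the 86 genes. Their median ratio was 1.0004. Library sizes came from the median count to FPKM ratio of these same genes, which holds that median near 1 by construction. The low FPKM of Nfat5 in IR replicate 3 thus combines a lower count with a longer assigned length. Its scaled count was 2.65-fold lower than the mean of the other IR libraries, and its FPKM was 4.04-fold lower.

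**Figure D3:**
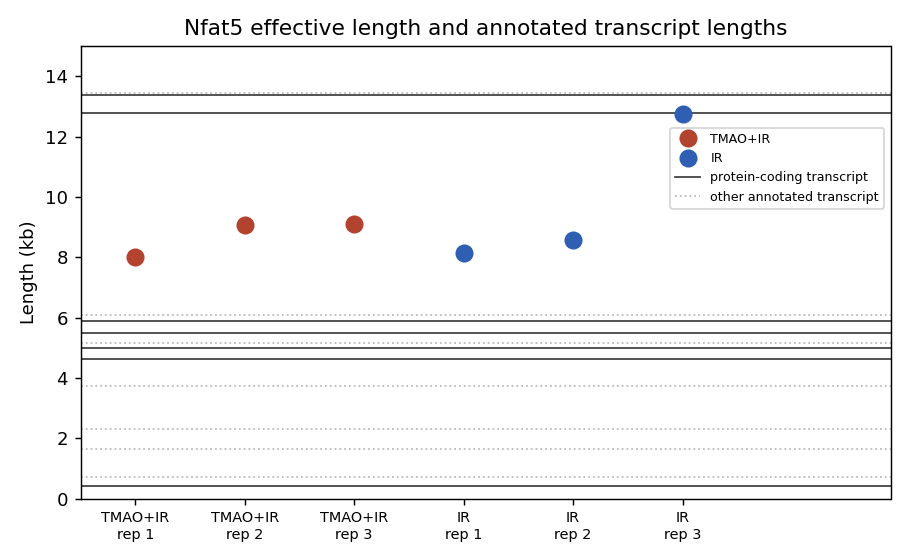
Effective length of Nfat5 in kb (y axis) in each library (x axis), with TMAO+IR in red and IR in blue, over lines at the length of each of the 14 annotated transcripts (solid for protein-coding, dotted for the others). IR replicate 3 is at 12.8 kb on the line of a long protein-coding transcript, and the other 5 libraries lie between 8.02 and 9.10 kb.

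Low values in IR replicate 3 were most marked in listed genes with long annotated transcripts, taking the longest transcript of each gene. Across the 117 genes with a mean of at least 50 counts, the log2 difference of IR replicate 3 from the mean of the other IR libraries had a Spearman rho of -0.54 and a Pearson r of -0.58 with log2 transcript length. This is a description across genes, which are not independent, share the same 3 libraries and were selected on the group difference. The corresponding rho was 0.10, 0.12 and -0.12 in TMAO+IR replicates 1, 2 and 3. In IR replicates 1 and 2 it was 0.30 and 0.42, values in which IR replicate 3 is part of the comparison.

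Among the 117 genes with a mean of at least 50 counts, the 10 with the longest transcripts had 8044 to 13443 bp. All 10 were lower in IR replicate 3, with a median difference of -1.36 on the log2 scale from the other IR libraries. Nfat5 was at -1.40. The 10 include Sntb2, Pik3c2a, the microtubule-associated protein gene Map1b and the cystine transporter gene Slc7a11. Only Nop58, a ribonucleoprotein of ribosomal RNA modification, was near 0, at -0.13. The longest annotated transcript is not always the length that the quantification assigned. Nop58, at 9507 bp by annotation, had an effective length of only 1.12 to 1.56 kb over the 6 libraries. Over the 100 higher genes at that count level, 45 of the 50 with transcripts above the median length and 35 of the other 50 were lower in IR replicate 3. The median differences were -0.68 and -0.32. Of the 122 higher genes, 79 had their lowest IR value in IR replicate 3, 36 in IR replicate 1 and 7 in IR replicate 2. RNA integrity values were not analysed here, and the part of transcript length in the Nfat5 difference was not tested.

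**Figure D4:**
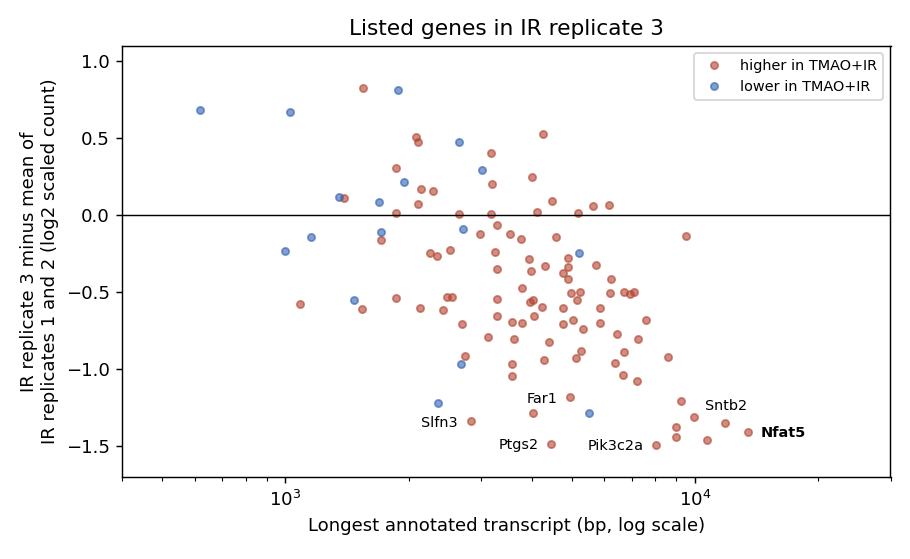
Log2 scaled count in IR replicate 3 minus the mean of IR replicates 1 and 2 (y axis) against the longest annotated transcript in bp on a log scale (x axis), for 117 listed genes, red where the authors list them as higher and blue as lower in TMAO+IR. Nfat5 is the rightmost point at 13443 bp and -1.40. The genes with the longest annotated transcripts lie near the bottom, except Nop58, whose effective length was only 1.12 to 1.56 kb.

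The listed genes whose profile over the 6 libraries was most like that of Nfat5 were found by the Pearson correlation of log2 scaled counts among the 116 other genes with a mean of at least 50 counts. They were Sntb2 (r = 0.996), Pik3c2a (0.996), Far1 (0.994), Ptgs2 (0.993) and Slfn3 (0.992). Sntb2 encodes a syntrophin of the dystrophin complex, Pik3c2a a class II phosphoinositide 3-kinase, Far1 a fatty acyl-CoA reductase of ether lipid synthesis, Ptgs2 cyclooxygenase 2 and Slfn3 a Schlafen family protein. Slfn3 has close paralogues, and the handling of shared reads is not stated in the labels. The median r over the 116 genes was 0.85, since every listed gene was selected on the same group difference. Without IR replicate 3, r was 0.98 for Sntb2, 0.98 for Pik3c2a, 0.97 for Far1, 0.98 for Ptgs2 and 0.98 for Slfn3, against a median of 0.94, and these values still include the group difference. At the other end over 6 libraries stood Rbp7, a retinol-binding protein gene (r = -0.93), Inka1 (-0.92) and the mitochondrial carrier gene Slc25a33 (-0.89). Without IR replicate 3 these were -0.95 for Rbp7, -0.87 for Inka1 and -0.69 for Slc25a33. All 3 were lower in TMAO+IR in the authors' deposited table.

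Deviations from the group means remove that difference. By these, the most like were Sntb2 (r = 0.992), Pik3c2a (0.991), Far1 (0.990), Ptgs2 (0.986) and Acsl4 (0.985), a fatty acid CoA ligase, against a median of 0.61. These correlations over 6 libraries follow the low value of IR replicate 3, which was -1.31, -1.49, -1.18, -1.48 and -0.88 on the log2 scale relative to the other IR libraries for those genes, in that order. With the group means recomputed over the 5 libraries without IR replicate 3, the median r of the deviations was 0.77. It was 0.87 for Sntb2, 0.89 for Pik3c2a, 0.86 for Far1, 0.92 for Ptgs2 and 0.92 for Acsl4. Slfn3, which is not among these 5, was higher, at 0.996. Nfat5 was nearly equal in IR replicates 1 and 2, so these values follow the lower TMAO+IR replicate 3. That library was at -0.36 on the log2 scale for Nfat5 relative to the other TMAO+IR libraries, and the median over the 117 genes was -0.43. By deviations over 6 libraries the lowest were Inka1 (-0.87), Rbp7 (-0.82) and Bicdl1 (-0.80). Without IR replicate 3 these were 0.30 for Inka1, -0.92 for Rbp7 and -0.52 for Bicdl1, so the sign for Inka1 turned.

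**Figure D5:**
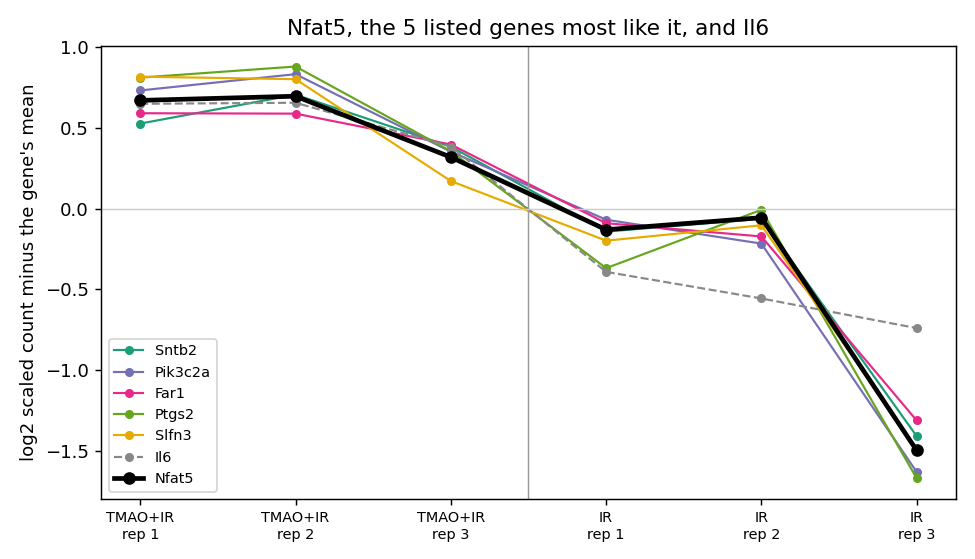
Log2 scaled count minus the gene's own mean (y axis) in each library (x axis), for Nfat5 in black, the 5 listed genes most like it over 6 libraries and Il6 (dashed); lines only join the points of a gene. The 6 solid profiles have their lowest point at IR replicate 3, from -1.31 for Far1 to -1.67 for Ptgs2, while Il6 is at -0.74 there.

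Sntb2, the listed gene most like Nfat5 over 6 libraries but not without IR replicate 3, is on the same chromosome. It lies on the plus strand of chromosome 8 at 106935750 to 107019714, and 273755 bp separate it from Nfat5. It was the only other listed gene within 500 kb, where GENCODE M21 has 17 other protein-coding entries, and that window was part of how genes were named. The authors listed 1.17% of the tested genes in either direction, and nothing is read from 1 listed gene in the window. Sntb2 was at 13.0, 13.9 and 10.03 FPKM in TMAO+IR replicates 1, 2 and 3, against 7.27, 7.73 and 2.79 in IR replicates 1, 2 and 3. As with Nfat5, IR replicate 3 was lowest. Nqo1, which lies 8707 bp beyond the end of Nfat5 and is read from the opposite strand, was not among the listed genes and was not analysed here. The effective length of Sntb2 in IR replicate 3 was 1.09-fold the mean of the other IR libraries, against 1.53-fold for Nfat5.

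None of the 15 osmoprotective target genes was in the deposited list. These include Akr1b3 (aldose reductase, which makes sorbitol), Slc5a3 (the myo-inositol transporter), Slc6a12 (the betaine transporter), Slc6a6 (the taurine transporter) and the heat shock genes Hspa1a, Hspa1b and Hspa4l. The authors listed 1.17% of the tested genes in either direction and 0.959% as higher, so fewer than 1 of 15 genes would be listed at that share. A count of 0 in a list of this size is therefore not a result about these genes. Likewise, none of 20 upstream regulators of NFAT5, such as the kinase genes Mapk14, Map2k3 and Fyn, was listed. The other NFAT and Rel genes (0 of 9, among them Nfatc1 to Nfatc4, Rela and Nfkb1), cell volume channels and cotransporters (0 of 18) and genes of TMAO and methylamine handling (0 of 14) had no listed member either. Absence means only that a gene missed a limit of the list, was not in the authors' test, or is not part of the rows used here.

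Of 10 inflammatory genes reported in other cells as NFAT5 targets, 2 were listed, Il6 and Ptgs2, and both were higher in TMAO+IR. This is 20.0% of that group, against the 0.959% above, but its members were chosen with the listed genes known, and nothing particular to NFAT5 can be read from it. Ptgs2 was at 12.03, 12.6 and 8.78 FPKM in TMAO+IR replicates 1, 2 and 3, against 5.31, 6.82 and 2.15 in IR replicates 1, 2 and 3. Its profile followed that of Nfat5, with IR replicate 3 lowest, but its effective length hardly moved, with 4.45 kb as the lowest and 4.46 kb as the highest value over the 6 libraries. Il6, the interleukin 6 gene, was at 51.4, 49.6 and 43.0 FPKM in TMAO+IR, against 23.9, 21.3 and 18.7 in IR, again by replicate number. For Il6, IR replicate 3 was at -0.27 on the log2 scale relative to the other IR libraries. Il6 deviations correlated with those of Nfat5 at r = 0.79 over 6 libraries, against a median of 0.61. Without IR replicate 3, r was 0.79 against a median of 0.77.

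Of 14 cytosolic heat shock genes, 3 were listed (21.4%), all higher in TMAO+IR, against 0.959% of the tested genes listed as higher. These members too were chosen with the listed genes known, and nothing particular to them is read from the count. Their deviations from the group means had correlations with those of Nfat5 of r = 0.48 for Hsph1, 0.27 for Hsp90aa1 and 0.19 for Dnaja1, over 6 libraries. Without IR replicate 3 the values were 0.88 for Hsph1, 0.92 for Hsp90aa1 and 0.92 for Dnaja1, against a median of 0.77 over the 116 genes. As described above, these follow the lower TMAO+IR replicate 3, which was low for most listed genes, so nothing particular to heat shock genes is read from them. Hsp90aa1 and Dnaja1 were not low in IR replicate 3, at -0.06 and 0.06 on the log2 scale relative to the other IR libraries. Hsph1 was at -0.60 there, against a median of -0.50 over the 117 genes. In the gene ontology columns of the authors' deposited table, the term response to osmotic stress was given to Nfat5 and to no other listed gene. Ptgs2 carried a term for non-ionic osmotic stress, and Ptgs2 and Bdkrb2, a bradykinin receptor gene, carried terms for osmotic regulation of apoptosis.

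The upstream sequences of Nfat5 and of both listed inflammatory targets are shown because NFAT5 binds tonicity-responsive elements, which contain TGGAAA. Each holds the 250 bases before the annotated start in RefSeq, build GRCm38.p6, on the plus strand, with matches to TGGAAA on either strand in capitals. The Nfat5 sequence is chr8:107293220-107293469, that of Ptgs2 chr1:150099781-150100030 and that of Il6 chr5:30012864-30013113.
Nfat5: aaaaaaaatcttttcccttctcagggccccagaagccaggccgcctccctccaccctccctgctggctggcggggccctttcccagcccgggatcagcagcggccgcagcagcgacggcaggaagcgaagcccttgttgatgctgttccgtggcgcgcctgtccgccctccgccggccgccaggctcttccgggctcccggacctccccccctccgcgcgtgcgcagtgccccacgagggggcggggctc
Ptgs2: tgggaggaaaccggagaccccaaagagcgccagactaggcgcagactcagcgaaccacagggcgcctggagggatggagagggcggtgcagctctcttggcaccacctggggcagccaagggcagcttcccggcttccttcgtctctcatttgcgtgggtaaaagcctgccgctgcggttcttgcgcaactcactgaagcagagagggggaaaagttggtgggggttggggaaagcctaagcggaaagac
Il6: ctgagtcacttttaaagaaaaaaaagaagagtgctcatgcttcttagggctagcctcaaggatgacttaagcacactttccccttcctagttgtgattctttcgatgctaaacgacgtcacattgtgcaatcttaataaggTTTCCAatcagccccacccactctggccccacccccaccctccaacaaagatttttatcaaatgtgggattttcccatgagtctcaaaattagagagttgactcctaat

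The Il6 window held the letters once, on the minus strand, and the Nfat5 and Ptgs2 windows did not. TGGAAA on either strand occurred in 18.6% of all 32851 such windows and in 25.9% of the 139 windows of 109 listed genes that the table covers. The longer tonicity-responsive element consensus was absent from the Nfat5, Ptgs2 and Il6 windows. It occurred in 4.31% of all windows and 4.32% of those of listed genes. A match is a description of letters and not of a binding site, and elements farther away were not searched. The Nfat5 window has 71.6% GC, against 61.6% for Ptgs2 and 42.8% for Il6.

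Of 63 markers of cardiomyocytes and other cell types, 9 were listed (14.3%), against 1.17% of the tested genes. They are in the table because they passed the same selection, in which 122 of 149 genes were higher in TMAO+IR, so their direction shows nothing of the markers that were not listed. The marker genes were chosen with the listed genes known. The listed monocyte and macrophage markers (3 of 12, Ccr2, Chil3 and Cybb) summed to 6.84 to 10.8 FPKM in TMAO+IR and to 2.6 to 4.6 in IR. Cybb had the largest mean of the 3, and its effective length varied 1.75-fold over the libraries. Its log2 fold change was 1.07 in the authors' FPKM but 0.71 from counts. The listed neutrophil markers (2 of 11, Mmp8 and Slfn4) summed to 12.2 to 14.6 in TMAO+IR and to 4.40 to 8.06 in IR. The listed fibroblast markers (2 of 10, Tnc and Thbs1) summed to 172 to 284 in TMAO+IR and to 63.2 to 146 in IR. Thbs1 made up most of the fibroblast sum, at 231 ± 56.0 FPKM in TMAO+IR and 92.0 ± 44.6 FPKM in IR (SD, n = 3 each). Ackr1, of 10 endothelial markers, was at 1.83 to 2.58 FPKM in TMAO+IR and at 0.80 to 0.88 in IR. Myh7, of the cardiomyocyte markers, was at 27.5 to 56.5 in TMAO+IR and at 6.29 to 12.5 in IR. In FPKM, the lowest sum was in IR replicate 3 for all of these except Ackr1, and no listed marker was at 0 in any library. In scaled counts, Myh7 was lowest in IR replicate 2, at 748 against 807 in IR replicate 3. None of 9 lymphocyte markers was listed. The part of these cell types in the Nfat5 difference was not tested.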

How the data were processed

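The authors deposited 1 table of 149 selected genes with unnormalized read counts as whole numbers for each of the 6 libraries, and with FPKM values printed to 2 decimals. It also holds the authors' group mean FPKM, the log2 fold change of these means, and the authors' p-value and FDR. Per the submitters' processing notes, HISAT2 and Bowtie2 2.2.8, fastp 0.18.0, edgeR and DESeq2, StringTie 1.3.1 and the GRCm38 build were used, with no role given. The T-IR columns were taken as TMAO+IR, the only group besides IR. The labels name no animals, so spread between libraries may be technical.

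Relative library sizes came from the count to FPKM ratio of the 86 genes that reached 1 FPKM in all libraries, and absolute sizes from 12 of them with a single transcript. Counts were fitted over all 149 genes with edgeR 4.0.16 in R 4.3.3 (quasi-likelihood), without a filter, and tested on simulated data first. Likeness used log2(scaled count + 0.5). The planned exact permutation test of effective length is not reported, since FPKM, which contains it, entered the selection. All 149 identifiers matched GENCODE M21.

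Named genes were Nfat5, listed members of 13 gene lists (163 genes), listed genes within 500 kb, and, among genes with a mean of at least 50 counts, the 5 most and 3 least like Nfat5 by each correlation. Map1b, Slc7a11, Nop58, Bdkrb2 and Spty2d1 were named after their values were seen. The gene and the lists were chosen with earlier results of these data known.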

Additional observations from a re-analysis of the deposited data

How the results depend on the processing

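The log2 fold change of Nfat5, 1.001 with all libraries, was 0.91 without scaling, 1.001 in DESeq2 1.42.0 with the recovered sizes, 1.03 as the ratio of mean FPKM, and 1.23 and 0.99 with pseudocounts of 0.1 and 1 on FPKM. Scaling within the list gave 0.019 (TMM) and -0.028 (size factors of DESeq2), since it sets the middle of selected genes near 0; the median of all listed genes then stood at 0.14 and 0.09, against 1.16. Leaving out 1 library gave 0.66 to 1.23 from counts and 0.61 to 1.295 from FPKM. The FPKM values with 1 library left out, and the likeness values without IR replicate 3, were chosen after seeing the data. The effective length difference ran from -1.95 to 0.36 kb, positive only without IR replicate 3. With the replicate block the log2 fold change was 1.12. Same-numbered libraries had correlations of deviations of -0.32, 0.33 and -0.08 over 117 genes, the labels name no pairs, and only replicate 2 of each group matched best with its own number. Matching the lists by identifier or older symbol gave 14 listed members, as by symbol.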
